A study of Homo sapiens with 12 samples.

Results

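IFITM1, IFITM2, IFITM3, ISG15, BST2, STAT2, IRF1, IRF8 and IFI16, a set of 9 genes of the interferon response, were followed through the differentiation of human embryonic stem cells toward blood. The genes were taken by symbol from a table of 56593 distinct symbols, and each stood on a single line. RNA-seq had been carried out on H1, an established human embryonic stem cell line, and on 3 populations derived from it: APLNR+ mesoderm cells of day 2, named for the apelin receptor on their surface, CD31+CD34+ endothelial progenitors of day 5, and CD43+ blood progenitors of day 8. There were 3 libraries per population. The line, with no genetic change named in the labels, was kept undifferentiated for the H1 group. The other groups received activin A and BMP4 in Custom mTeSR1 medium first. VEGF with bFGF followed from about day 2, when the APLNR+ cells were taken. The step from APLNR+ to CD31+CD34+ therefore also spans the change of added factors. No interferon treatment is named for any group, and all 4 populations share the genome of 1 cell line. The labels do not say that the libraries of a population came from separate cultures, so the p-values measure the spread between these samples, which may be technical.

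Interferons are secreted proteins, most of which cells make on sensing foreign nucleic acid. On binding their receptors they activate JAK kinases and STAT factors. Complexes that hold STAT2 and IRF9 bind the interferon-stimulated response element (ISRE) of many target genes, while the gamma-activated site (GAS) serves chiefly the response to interferon gamma. The induced genes encode proteins that block viral entry, replication and release, and several of them are also expressed in stem cells and during embryonic hematopoiesis without infection.

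The promoters of the genes differed in these elements. RefSeq promoters, from 250 bases before to 50 after the gene start on GRCh38.p14, matched 8 of the 9 genes, IFITM2 being the one without an entry. An ISRE core, searched on both strands as GAAA, any 2 bases and GAAA again, was present in 3.57% of 35116 promoters. IFITM1, IFITM3, ISG15 and BST2 each held 2 matches, and those of ISG15 and of BST2 overlapped each other. STAT2, IRF1, IRF8 and IFI16 held none in this window. A GAS, searched as TTC, any 3 bases and GAA, was present in 7.66% of the promoters and was found in IFITM1, BST2 and IRF1. The stretches below are shown because they hold the ISRE matches of the 4 effector genes and the GAS match of IRF1. They are written 5′ to 3′ on the strand of the gene, and capitals mark the ISRE matches, or for IRF1 the GAS match. A GAS match of BST2, from base -136 to base -128, overlaps its first ISRE match and is not marked separately. All 5 stretches lay upstream of the RefSeq gene start: at chr11:313989-314018 (plus strand) for IFITM1, chr11:320885-320914 (minus strand) for IFITM3, chr1:1013377-1013406 (plus strand) for ISG15, chr19:17405738-17405767 (minus strand) for BST2 and chr5:132490879-132490908 (minus strand) for IRF1.
IFITM1: acaaacagcagGAAATAGAAActtaagaga
IFITM3: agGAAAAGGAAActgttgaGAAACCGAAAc
ISG15: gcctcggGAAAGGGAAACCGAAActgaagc
BST2: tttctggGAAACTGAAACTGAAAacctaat
IRF1: aacagcctgatTTCCCCGAAatgacggcac
The second ISRE match of IFITM1 spanned its gene start, from base -6 to base 4, and is not printed. A match describes these letters and does not show that a factor was bound.

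Levels are given in FPKM, by definition fragments scaled to transcript length and library total, a unit in which genes can be set beside each other. Summed FPKM was not equal between libraries. It was 1.44e+06, 5.68e+05 and 5.73e+05 in CD31+CD34+ replicates 1 to 3 and 6.73e+05, 1.58e+06 and 1.30e+06 in those of APLNR+. Changes are differences of mean log2(FPKM + 1), which understate the change of genes under a few FPKM. They were tested with limma in 1 model of the 4 populations over the 14840 genes that reached 1 FPKM in at least 3 libraries. A gene was called raised or lowered where it had changed at least 2-fold with an adjusted p below 0.05. IRF8 did not reach the filter, so 8 of the 9 genes were tested. The genes of the labelled surface proteins APLNR, CD31 and CD43 were present in their populations but not limited to them, and the level of CD34 was not examined. APLNR averaged 383 FPKM in APLNR+ and 403 in CD31+CD34+, and PECAM1 (CD31) 55.2 in CD31+CD34+ and 95.9 in CD43+. SPN (CD43) averaged 75.5 FPKM in CD43+ and 3.70 in CD31+CD34+, and POU5F1, a stem cell factor, 1002 in H1 and 12.5 in CD43+. Replicate 1 was the shallowest library of each population, at 0.552 to 0.746 of the depth of CD43+ replicate 3 against 1.00 to 1.27 for the other libraries. Absolute depth is unknown because the table holds no counts. Rescaling the libraries without genes of small RNAs moved the median of all tested genes by 0.17 from H1 to APLNR+ and by -0.16 from APLNR+ to CD31+CD34+ on the log2 scale, so the changes below are relative to that uncertainty. In bulk samples a lower level in fewer cells and in all cells cannot be told apart.

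The transition from APLNR+ to CD31+CD34+ cells held most of the calls. ISG15, IRF1, IFITM3, BST2 and STAT2 were raised there, 5 of the 8 genes tested and none lowered, where 29.6% of all tested genes were called, 12.5% raised and 17.1% lowered. From H1 to APLNR+, IFI16 alone was called, against 15.9% of all genes, 8.3% raised and 7.62% lowered. In the transition of CD31+CD34+ to CD43+ cells, ISG15 was raised again while IRF1 and IFITM1 were lowered, 3 of 8 genes against 14.4% of all genes, 5.58% raised and 8.79% lowered. Set against H1, CD43+ cells had 5 of the 8 genes raised and none lowered, against 37.1% of all genes called, 14.6% raised and 22.5% lowered. Libraries of the 2 populations did not overlap for 4, 5 and 5 of the 8 genes at the consecutive steps and for 7 from H1 to CD43+, where 66%, 75.7%, 58% and 76.3% of all genes did not overlap. The median change of the 8 genes was -0.05, 1.20 and 0.09 at the steps, beside -0.12, -0.01 and -0.00 over all tested genes. Consecutive comparisons share a population, so these counts are not independent of each other. The plot of FPKM by library shows the levels behind each call.

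**Figure D1:**
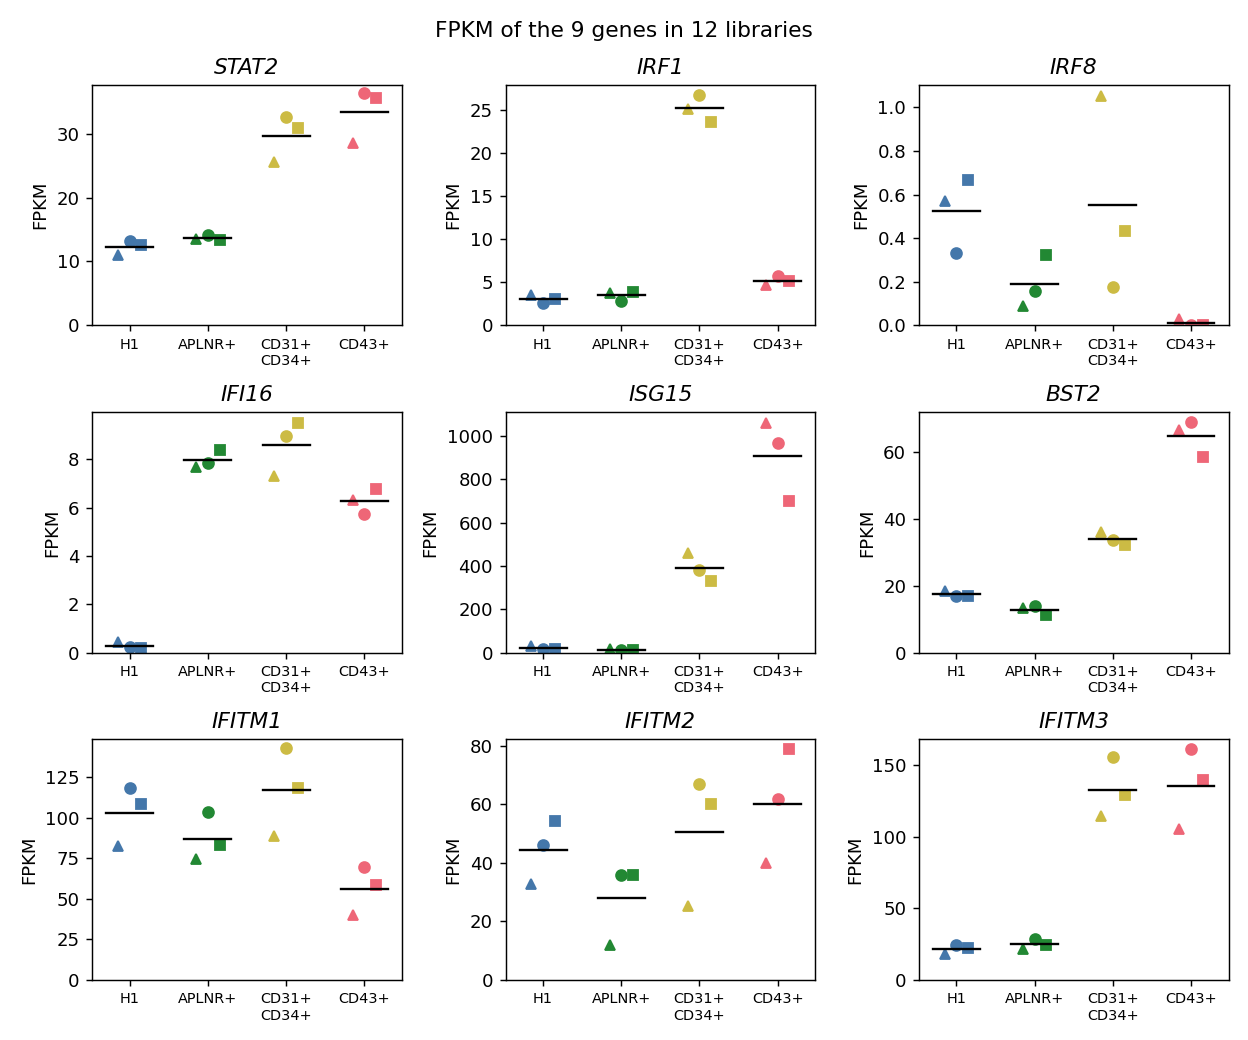
FPKM (linear axis from 0, a scale of its own in each panel) of the 9 genes in 4 populations, with triangles, circles and squares for replicates 1, 2 and 3 and a bar at the mean of 3 libraries. ISG15 and BST2 are highest in CD43+, IRF1 stands at 25.2 FPKM in CD31+CD34+ and at 5.20 or less elsewhere, IFI16 is near 0 in H1 alone, and IFITM3 has a low and a high pair of populations.

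STAT2, the signal transducer that joins IRF9 after type I interferon, was at 10.98, 13.2 and 12.6 FPKM in the H1 libraries and at 13.4, 14.1 and 13.4 in APLNR+. Its CD31+CD34+ libraries were at 25.5, 32.5 and 30.8 FPKM and its CD43+ libraries at 28.4, 36.3 and 35.5. The 6 libraries of the later populations were all above the 6 of the earlier ones, and neighbours within each pair did not pass the test. The rise from APLNR+ to CD31+CD34+ was 1.06 on the log2 scale (SE 0.12, adjusted p = 6.13e-06, limma). This was close to the 2-fold minimum: it was 0.85 when libraries were rescaled without small RNA genes and 0.99 without CD31+CD34+ replicate 2, and the call was lost in both. From H1 to CD43+ the change was 1.37 (SE 0.12, adjusted p = 4.29e-07, limma), and the call was kept under all 26 alternatives tried.

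IRF1, a transcription factor induced through GAS sites and an activator of antigen presentation genes, peaked in the endothelial progenitors. H1 libraries were at 3.56, 2.55 and 3.02 FPKM and APLNR+ libraries at 3.80, 2.86 and 3.86. In CD31+CD34+ the libraries reached 25.2, 26.7 and 23.7 FPKM, and in CD43+ they were at 4.71, 5.70 and 5.19. Every CD31+CD34+ library was above every other library, by more than the whole spread of any population. The rise from APLNR+ was 2.55 on the log2 scale (SE 0.12, adjusted p = 4.90e-09, limma), a ratio of means of 7.19. The change to CD43+ was -2.08 (SE 0.12, adjusted p = 4.66e-08, limma). Both calls were kept under all 26 alternatives. CD43+ stayed above H1 by 0.62 (adjusted p = 0.000607, limma), less than 2-fold, with libraries that did not overlap, and H1 and APLNR+ overlapped. A processed transcript and a further gene model overlap IRF1 on the opposite strand in GENCODE release 29, and whether reads were counted by strand is not given in the sources used here.

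IRF8, a factor of monocyte, dendritic and B cell development, was low throughout. Its libraries were at 0.568, 0.332 and 0.667 FPKM in H1 and at 0.0895, 0.157 and 0.323 in APLNR+. In CD31+CD34+ they were at 1.05, 0.178 and 0.434, and in CD43+ at 0.0300, 0 and 0. Replicate 1 of CD31+CD34+ was the one library above 1 FPKM, and its population overlapped H1 and APLNR+. The CD43+ libraries were below all others, but an exact 0 in this table can be a failed estimate: EEF1A1, a translation factor gene used by every cell, was listed at 0 in 6 of 12 libraries. Of 10 monocyte and macrophage markers, 4 averaged at least 1 FPKM in CD43+ (LYZ, SPI1, CSF3R and CSF1R). The summed level of the list was 41.0 to 44.8 FPKM in the CD43+ libraries and 3.41 to 4.17 in CD31+CD34+. LYZ, SPI1, CSF3R and CSF1R averaged 13.2, 12.8, 10.7 and 4.84 FPKM in CD43+. The other 6 genes of the list (CD68, ITGAM, CD163, MPO, CD14 and FCGR1A) averaged between 0.00193 and 0.493 FPKM there.

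IFI16, a nuclear sensor of DNA that signals through STING, was called at the first step and at no later one. H1 libraries were at 0.437, 0.235 and 0.198 FPKM and APLNR+ libraries at 7.70, 7.86 and 8.38. CD31+CD34+ libraries were at 7.30, 8.96 and 9.50 FPKM and CD43+ libraries at 6.31, 5.74 and 6.78. The 3 H1 libraries stood far below the other 9. The rise from H1 to APLNR+ was 2.80 on the log2 scale (SE 0.11, adjusted p = 1.10e-09, limma), rank 198 of 14840 from the largest rise. It was 4.42 with a pseudocount of 0.1 in place of 1, since the H1 level lies under 1 FPKM. APLNR+ and CD31+CD34+ overlapped, with a change of 0.09 (adjusted p = 0.502, limma) that turned to -0.11 when libraries were rescaled without small RNA genes. The change to CD43+ was -0.39 (SE 0.11, adjusted p = 0.0117, limma), less than 2-fold.

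ISG15, a ubiquitin-like protein that is joined to other proteins after interferon, had the largest range of the 9 genes. It was at 29.1, 18.4 and 18.3 FPKM in H1 and at 17.5, 13.2 and 10.9 in APLNR+. The CD31+CD34+ libraries were at 459, 383 and 330 FPKM and the CD43+ libraries at 1057, 966 and 698. None of the populations overlapped its neighbour. The first step gave -0.62 (SE 0.22, adjusted p = 0.0307, limma), less than 2-fold. The rise to CD31+CD34+ was 4.73 on the log2 scale (SE 0.22, adjusted p = 3.58e-09, limma), a ratio of means of 28.2 and rank 31 of 14840 from the largest rise. A further rise of 1.20 to CD43+ followed (SE 0.22, adjusted p = 0.000628, limma). Under quantile normalization that last change was 0.998 and fell just short of the 2-fold minimum. By mean FPKM the gene stood at rank 3025 of the tested genes in H1 and 4302 in APLNR+, then at 193 in the CD31+CD34+ cells and 114 in the CD43+ cells. The annotation places an antisense gene and a pseudogene on the other strand over ISG15.

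BST2, or tetherin, a membrane protein that holds budding virus on the cell surface, was lowest in APLNR+ and highest in CD43+, the order that ISG15 had. Its H1 libraries were at 18.5, 16.9 and 16.9 FPKM and its APLNR+ libraries at 13.3, 14.1 and 11.1. CD31+CD34+ libraries were at 36.0, 33.6 and 32.1 FPKM and CD43+ libraries at 66.6, 69.1 and 58.6. All 4 populations were separate. The change from H1 to APLNR+ was -0.42 (SE 0.10, adjusted p = 0.00363, limma), less than 2-fold. From APLNR+ to CD31+CD34+ BST2 rose by 1.34 (SE 0.10, adjusted p = 1.98e-07, limma). The next change, 0.91 (SE 0.10, adjusted p = 1.12e-05, limma), passed the adjusted p but not the 2-fold minimum. From H1 to CD43+ it was 1.83 (SE 0.10, adjusted p = 7.07e-09, limma), a ratio of means of 3.71.

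The IFITM proteins are short membrane proteins that hinder the fusion of enveloped viruses, IFITM1 mainly at the cell surface and IFITM2 and IFITM3 in endosomes. Their genes are neighbours on chromosome 11. They share sequence: of all 50-base stretches in GENCODE release 29 transcripts, 32% of those of IFITM1, 29.7% of those of IFITM2 and 16% of those of IFITM3 also occur in another of the 3 genes. An annotated IFITM2 transcript overlaps IFITM1 on the same strand, and antisense genes overlap IFITM2 and IFITM3. The division of reads among the 3 genes is therefore uncertain, and each value below carries that limit.

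IFITM3 was at 18.1, 24.5 and 22.2 FPKM in H1 and at 21.2, 28.3 and 24.7 in APLNR+. It was at 114, 156 and 129 FPKM in CD31+CD34+ and at 105, 161 and 140 in CD43+. The 6 later libraries were all above the 6 earlier ones, and within each pair of populations the libraries overlapped. The rise from APLNR+ to CD31+CD34+ was 2.38 on the log2 scale (SE 0.17, adjusted p = 1.52e-07, limma), a ratio of means of 5.38, and it was kept under all 26 alternatives. From CD31+CD34+ to CD43+ the change was 0.02 (SE 0.17, adjusted p = 0.949, limma), and its sign turned under 4 of the alternatives. H1 and CD43+ differed by 2.58 (SE 0.17, adjusted p = 4.29e-08, limma).

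IFITM1 had the highest level of the 9 genes in H1 and in APLNR+. Its libraries were at 82.6, 118 and 109 FPKM in H1 and at 74.4, 104 and 83.0 in APLNR+. They were at 88.9, 143 and 119 FPKM in CD31+CD34+ and at 40.0, 69.8 and 58.3 in CD43+. The 3 earlier populations overlapped one another, and every CD43+ library was below every earlier library. From CD31+CD34+ to CD43+ the change was -1.06 (SE 0.23, adjusted p = 0.00182, limma). It stayed near the 2-fold minimum, at -0.97 under quantile normalization, -0.90 without CD31+CD34+ replicate 2 and -0.84 without CD43+ replicate 1, and the call was lost in each. From H1 to CD43+ the change was -0.89 (adjusted p = 0.00332, limma), short of 2-fold, and it was -1.04 and called without H1 replicate 1, and -1.06 and called without CD43+ replicate 2.

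IFITM2 had the largest SE on the log2 scale of the 8 genes tested. It was at 32.7, 46.2 and 54.4 FPKM in H1 and at 11.95, 35.8 and 35.9 in APLNR+. The CD31+CD34+ libraries were at 25.1, 66.9 and 60.2 FPKM and the CD43+ libraries at 40.0, 62.0 and 79.0. Neighbouring populations overlapped at each step, with replicate 1 the lowest library of every population. The changes at the consecutive steps were -0.77, 0.87 and 0.31 on the log2 scale with an SE of 0.44, at adjusted p of 0.157, 0.0943 and 0.583 (limma). Without CD31+CD34+ replicate 1 the middle change was 1.31 and called, and the last one was -0.12. APLNR+ and CD43+, compared without alternatives, did not overlap and differed by 1.18 (adjusted p = 0.0295, limma).

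The composition of the IFITM sum turned over between mesoderm cells and endothelial progenitors. IFITM1 made up 61.1% ± 2.10 (SD, n = 3) of the summed FPKM of the 3 genes in H1 and 62.9% ± 5.77 in APLNR+. It made up 38.9% ± 0.342 in CD31+CD34+ and 22.1% ± 1.49 in CD43+. The IFITM3 share was 12.8% ± 0.795 in H1 and 17.9% ± 1.56 in APLNR+. It was 44.8% ± 4.55 in the CD31+CD34+ libraries and 54.1% ± 3.27 in the CD43+ libraries. The IFITM3 share did not overlap between any neighbouring populations and the IFITM1 share overlapped between H1 and APLNR+ alone. Each non-overlapping step had a two-sided exact permutation p = 0.1, the smallest that 3 libraries against 3 can give. The IFITM2 share averaged between 16.3% and 26.1%. It differed by 7.46 percentage points from CD31+CD34+ to CD43+ (exact permutation p = 0.1), and its libraries overlapped at the other steps. The sum itself averaged 169, 140, 301 and 252 FPKM in the order of the days. It did not overlap between APLNR+ and CD31+CD34+ (exact permutation p = 0.1) and overlapped at the other steps.

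**Figure D2:**
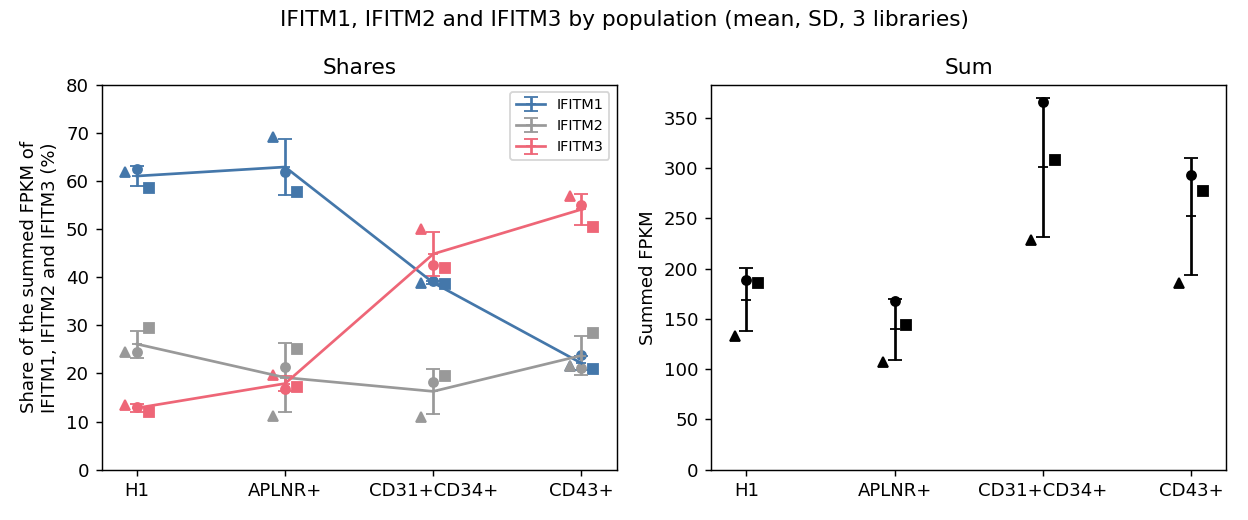
Left, share (%) of IFITM1, IFITM2 and IFITM3 in their summed FPKM, and right, the summed FPKM, by population. Triangles, circles and squares are replicates 1, 2 and 3, and bars give mean ± SD of 3 libraries; the IFITM1 and IFITM3 shares cross between APLNR+ and CD31+CD34+, where IFITM3 goes from 17.9% to 44.8%.

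The rest of the pathway was read from 7 lists of 138 further genes, of which 92 passed the filter. From H1 to APLNR+, 8 were raised and 10 lowered (11 and 8 when rescaled without small RNA genes). From APLNR+ to CD31+CD34+, 28 were raised and 13 lowered, and from CD31+CD34+ to CD43+, 13 were raised and 6 lowered. The share called was 19.6%, 44.6% and 20.7% of the 92 genes, beside 15.9%, 29.6% and 14.4% of all tested genes. Their median changes were -0.21, 0.49 and 0.19, beside -0.12, -0.01 and -0.00. Between H1 and CD43+, 30 were raised and 16 lowered, 50% of the 92 genes beside 37.1% of all tested genes, with a median of 0.40 beside -0.10. The shares of all tested genes raised were 8.3%, 12.5% and 5.58% at the steps and the shares lowered 7.62%, 17.1% and 8.79%, and the counts of each list below stand beside these.

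**Figure D3:**
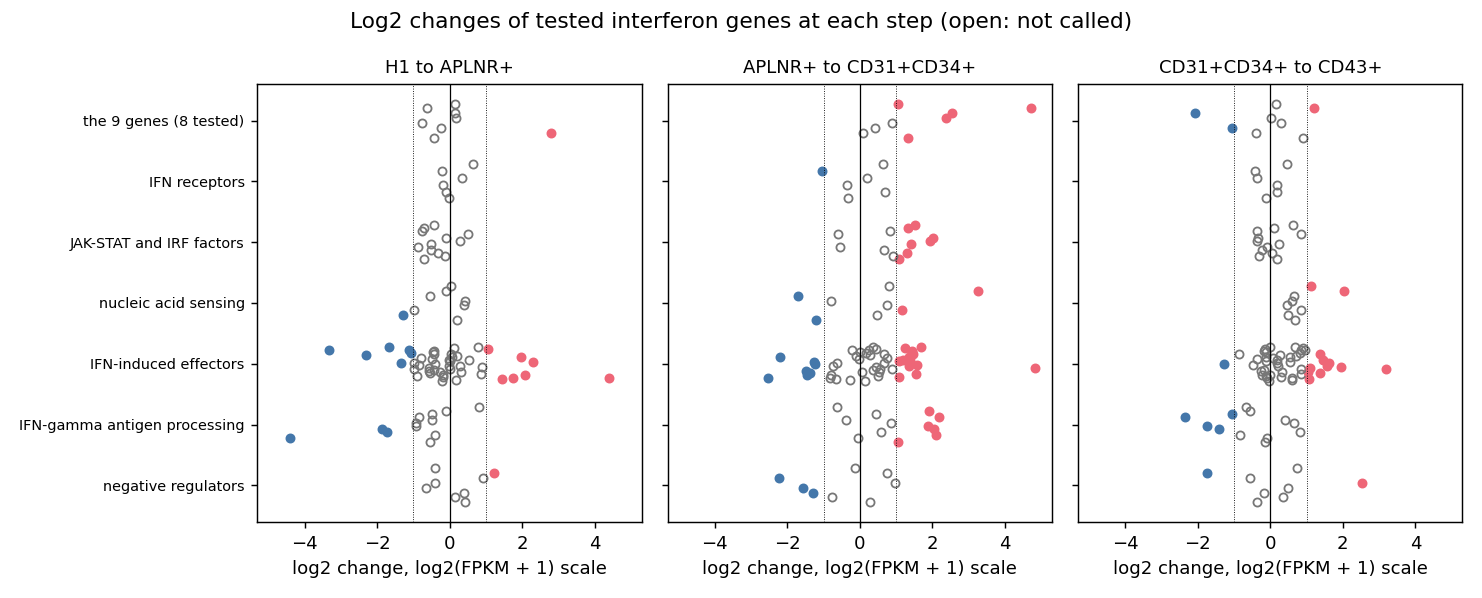
Log2 change on the log2(FPKM + 1) scale (x axis) of each tested interferon gene at the 3 consecutive steps (panels), by list (rows). Filled points are called, red for raised and blue for lowered, open points are not called, and dotted lines mark 2-fold. The middle panel has the most filled red points, 28 of the 92 pathway genes and 5 of the 8 genes in the top row.

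Of the ligands, the interferons themselves, 0 of 21 genes passed the filter. The highest value in any library was 0.131 FPKM, for IFNG in APLNR+ replicate 3. The 6 receptor genes passed the filter, and 1 call was made among them at the 3 steps, the fall of IFNLR1, a subunit of the interferon lambda receptor, by 1.05 on the log2 scale from APLNR+ to CD31+CD34+ (adjusted p = 7.44e-06, limma). In CD31+CD34+ the interferon gamma receptor subunits IFNGR1 and IFNGR2 averaged 7.02 and 14.2 FPKM. The type I receptor subunits IFNAR1 and IFNAR2 averaged 1.58 and 2.79 FPKM there, and IL10RB, which pairs with IFNLR1, averaged 3.48.

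Among the kinases and factors that STAT2 works with, 7 of 12 tested were raised from APLNR+ to CD31+CD34+, where 12.5% of all genes were raised. None was called at the other steps, where 15.9% and 14.4% of all genes were called. JAK1 went from a mean of 5.67 to 26.0 FPKM and TYK2, the other kinase of the type I receptor, from 7.95 to 24.9. IRF9, the DNA-binding partner of STAT2, was at 4.75, 6.91 and 4.24 FPKM in APLNR+ and at 19.6, 22.9 and 25.6 in CD31+CD34+, a change of 1.93 (SE 0.17, adjusted p = 7.14e-07, limma). IRF2, IRF2BP2, IRF7 and STAT3 were the others raised.

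Of the sensing genes, 8 of 15 passed the filter. TMEM173, which encodes STING, the adaptor below IFI16, went from a mean of 0.0809 FPKM in APLNR+ to 9.48 in CD31+CD34+ and 42.5 in CD43+. Its changes were 3.26 (adjusted p = 6.98e-09, limma) and 2.04 (adjusted p = 7.25e-07, limma). TBK1, the kinase that acts after STING, changed by -1.72 from APLNR+ to CD31+CD34+ (adjusted p = 3.42e-07, limma), from a mean of 6.68 to 1.35 FPKM. The list as a whole had 2 raised and 2 lowered at that step and 2 raised and none lowered at the next, a share called of 50% and 25% beside 29.6% and 14.4% of all genes.

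Interferon-induced effectors beside the IFITM genes, ISG15 and BST2 were the largest list, with 46 of 58 tested. At the consecutive steps 7, 13 and 10 were raised, beside 8.3%, 12.5% and 5.58% of all genes. Of the same 46 genes 6, 7 and 1 were lowered, beside 7.62%, 17.1% and 8.79%. IFIT1, which binds viral RNA lacking cap methylation, was at 0.387, 0.262 and 0.368 FPKM in APLNR+, at 30.1, 41.5 and 41.1 in CD31+CD34+ and at 68.1, 78.9 and 95.4 in CD43+. These are the 3 levels in rising order that ISG15 also had, and the change from APLNR+ to CD31+CD34+ was 4.83 (SE 0.15, adjusted p = 1.11e-10, limma). IFI6, a mitochondrial protein, rose at the last step, by 3.18 (adjusted p = 2.80e-10, limma) from a mean of 1.40 to 20.8 FPKM, as did IFIT2, by 1.94 (adjusted p = 1.66e-07, limma).

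Further effectors were called at the first step. APOBEC3G, a cytidine deaminase that acts on retroviruses, rose by 4.40 from H1 to APLNR+ (adjusted p = 1.89e-11, limma), from a mean of 0.699 to 34.9 FPKM, and fell by 2.53 on the log2 scale at the next step. PLSCR1, a phospholipid scramblase, rose by 1.97 and fell by 2.19 at the same steps. APOBEC3F and APOBEC3C were also raised in APLNR+, by 1.75 and 1.43, and APOBEC3C had its highest mean, 15.4 FPKM, in CD43+, where its libraries overlapped those of APLNR+. TRIM22 and SAMHD1, a nucleotide hydrolase that limits reverse transcription, were highest in H1 and changed by -3.33 and -2.30 from H1 to APLNR+. RSAD2 and IFI44L, which are commonly induced by interferon, reached at most 0.190 FPKM and were named after their values were seen.

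A list of genes that interferon gamma induces, most of them genes of antigen processing, which IRF1 is known to activate, had 12 of 16 tested. It also held IDO1 and WARS, which are not antigen processing genes. From H1 to APLNR+, none was raised and 3 were lowered, beside 8.3% and 7.62% of all genes, with a median change of -0.70. From APLNR+ to CD31+CD34+, 6 were raised and none lowered, beside 12.5% and 17.1% of all genes. Set against H1, CD31+CD34+ cells had 3 of these genes raised and 2 lowered. That was 41.7% called beside 40.1% of all genes. From CD31+CD34+ to CD43+, none was raised and 4 were lowered, beside 5.58% and 8.79%. TAP1, a subunit of the peptide transporter, was at 0.512, 0.715 and 0.695 FPKM in APLNR+, at 5.92, 7.12 and 6.40 in CD31+CD34+ and at 0.495, 0.543 and 0.360 in CD43+. Its changes were 2.19 (adjusted p = 2.25e-09, limma) and -2.35 (adjusted p = 2.22e-09, limma). PSMB8, a subunit of the immunoproteasome, changed by 2.03 and -1.42 at these steps, and by -1.87 from H1 to APLNR+. The CD31+CD34+ libraries were above both neighbours for TAP1 and PSMB8, as they were for IRF1. Unlike IRF1, PSMB8 averaged 5.07 FPKM in H1 beside 5.79 in CD31+CD34+ (adjusted p = 0.243, limma). The list was mixed: beside the 4 genes lowered to CD43+, PSMB10, PSME1 and PSME2 averaged more in CD43+ (30.4, 61.9 and 44.5 FPKM) than in CD31+CD34+ (16.9, 38.7 and 33.3), without a call. IDO1, a tryptophan-degrading enzyme of the same list, was at 22.5 FPKM in H1 and 0.117 in APLNR+, a change of -4.39 (adjusted p = 1.50e-11, limma), and was not raised later.

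**Figure D4:**
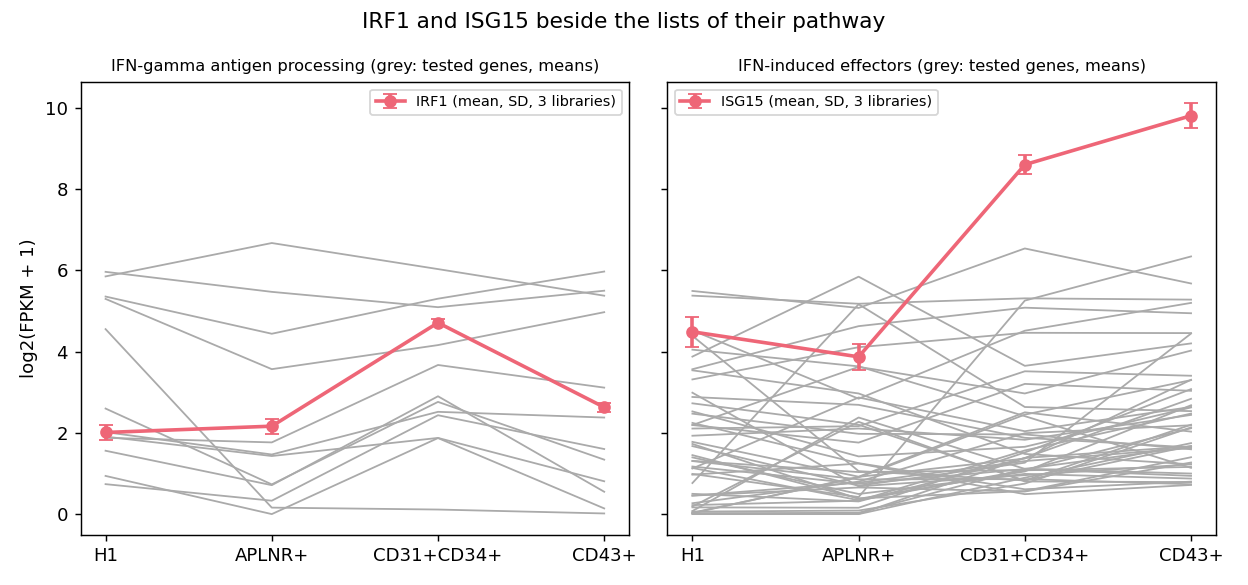
Mean log2(FPKM + 1) by population of IRF1 (left) and ISG15 (right) in red, with SD over 3 libraries. Grey lines, each a gene, are the tested genes of the interferon gamma and antigen processing list, IDO1 and WARS included (left), and the interferon-induced effectors (right). IRF1 peaks in CD31+CD34+. Of the 12 genes of the left list, 3 were lowered from H1 to APLNR+ and 6 raised from APLNR+ to CD31+CD34+. ISG15 lies above the grey lines in CD31+CD34+ and CD43+.

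Negative regulators did not move in 1 direction. Of 8 tested genes, 1, 0 and 1 were raised and 0, 3 and 1 lowered at the steps. The share called was 12.5%, 37.5% and 25% beside 15.9%, 29.6% and 14.4% of all genes. SOCS1, an inhibitor of JAK kinases, was at 10.9, 7.12 and 9.47 FPKM in APLNR+ and at 1.21, 1.08 and 1.16 in CD31+CD34+, a change of -2.23 (adjusted p = 1.98e-07, limma). SOCS3, its relative, fell by 1.74 on the log2 scale from CD31+CD34+ to CD43+ (adjusted p = 3.82e-08, limma), while PTPN6, a phosphatase of blood cells, rose by 2.52 (adjusted p = 8.79e-09, limma).

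Genes with the most similar pattern were ranked by Pearson's r of log2(FPKM + 1) over the 12 libraries, as a description. The libraries fall into 4 populations, so a high r mainly describes 4 levels. IFITM3 was most like CD40 (r = 0.997) and RAB5C (0.996), ISG15 most like DOK1 (0.997) and ADORA2B (0.995), and BST2 most like COL2A1 (0.996) and TMEM141 (0.995). STAT2 was most like ARFGAP2 (0.995) and OGDH (0.994), IRF1 most like ZNF469 (0.992) and FAM110D (0.991), and IFI16 most like LIX1L (0.993) and GSTO1 (0.992). IFITM2 was most like UBAP2L (0.972) and CNOT9 (0.965), IFITM1 most like CYSTM1 (0.960) and ANKS1A (0.951), and IRF8 most like DKKL1 (0.930) and SPEG (0.852). IRF8 did not reach the filter, so its r rests on very low values. Among the 9 genes themselves, IFITM3 and STAT2 had r = 0.992 and ISG15 and BST2 had r = 0.971. IFITM1 had a negative r with IFITM3 (-0.18), ISG15 (-0.39) and BST2 (-0.49).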

How the data were processed

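RNA-seq libraries of 12 samples were used, 3 each from H1, APLNR+, CD31+CD34+ and CD43+ cells, grouped by sample title. Per the labels, RNA was extracted with Trizol and libraries were made with a TruSeq kit. The study names a pair of companies for its RNA-seq. Which of them sequenced these libraries, or whether both did, is not given in the sources used here. The authors deposited 1 table of FPKM values by gene symbol. The submitters' processing notes name BWA, Bowtie, RSEM and the build hg19 with no role; the estimator of the values, annotation and any scaling are not given in the sources used here, and no gene coordinates on hg19 are printed. Of 58366 lines, 1 held text and was left out, and 345 symbols stood on more than 1 line, of which that with the highest mean was kept. No whole reads could be recovered, so count tests were left out and absolute depth is unknown. Depth relative to CD43+ replicate 3 was estimated as the commonest ratio among low genes (0.0001 to 0.2 FPKM).

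Genes with 1 FPKM in at least 3 libraries were tested with limma 3.58.1 in R 4.3.3 on log2(FPKM + 1), in 1 model of the 4 populations with eBayes trend, no covariate and Benjamini-Hochberg adjustment over 14840 genes per comparison. The fit was tested on simulated data. IFITM shares were compared by a two-sided exact permutation test. Alternatives were another pseudocount, filters, scalings, a replicate block, a term for replicate 1, pairs of populations alone, no trend, no minimum change and leaving out each library. Pathway genes named were the 4 largest rises and 4 largest falls per step among called genes with non-overlapping libraries and a higher mean of 5 FPKM or more, and receptors; the 2 genes most like each of the 9 were also named. Other names illustrate a list and were chosen after their values were seen. The 9 genes, the lists and the tests were chosen with earlier results of these data known. Promoters came from RefSeq (GRCh38.p14), and gene overlaps and shared stretches from GENCODE release 29. Protein sequences were not used here. Other steps ran in Python 3.11.15 (matplotlib 3.10.9, scipy 1.17.1, pandas 2.3.3, numpy 2.4.6).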

Additional observations from a re-analysis of the deposited data

How the results depend on the processing

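Precision is limited by 3 libraries per population and by the unknown depth. Under other scalings, filters and models the count of called genes among the 8 stayed within 1.5 times, except from CD31+CD34+ to CD43+ under quantile normalization (1 in place of 3) and with no minimum change (3 from H1 to APLNR+ and 5 from CD31+CD34+ to CD43+). Leaving out each library gave 1 to 1, 4 to 6, 2 to 3 and 5 to 6 calls for the steps in order and for H1 to CD43+. Of the other pathway genes, 92 were tested, and fewer with a mean of at least 5 FPKM. Their calls from H1 to APLNR+ were 35 with a pseudocount of 0.1, 9 with a mean of at least 5 FPKM and 63 with no minimum change. Over all genes, 1782 were raised and 1850 lowered of 14840 with that pseudocount. With the mean filter these were 672 and 521 of 8622, and with no minimum change 3376 and 5218 of 14840. From APLNR+ to CD31+CD34+ the pathway calls were 21 and 77 under the last 2 settings. Over all genes, 1343 were raised and 1663 lowered of 8622 under the first of these, and 5329 and 5619 of 14840 under the second. From CD31+CD34+ to CD43+ the pathway calls were 30, 7 and 57 under the 3 settings, and from H1 to CD43+ 22 and 77 under the last 2. Over all genes, the former step had 1427 raised and 2178 lowered, then 457 and 856, then 3840 and 4121. From H1 to CD43+ all genes had 1370 raised and 1939 lowered, then 4922 and 6154. A higher filter leaves fewer genes to test, and dropping the minimum change admits smaller changes.

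Directions that turned belonged to changes that were not called. From CD31+CD34+ to CD43+, IFITM3 went from 0.02 to -0.074 when rescaled without small RNA genes and ranged from -0.12 to 0.19 on leaving out each library, and IFITM2 ranged from -0.12 to 0.57. IFI16 went to -0.11 from APLNR+ to CD31+CD34+ when rescaled without small RNA genes. On leaving out each library, the IFITM1 share from H1 to APLNR+ ranged from -1.25 to 4.44 percentage points, and the IFITM2 share from APLNR+ to CD31+CD34+ from -6.90 to 0.0494. The cause was not tested. Over all genes, that rescaling turned 1232 raised and 1131 lowered from H1 to APLNR+ into 1606 and 777, and 1861 and 2539 from APLNR+ to CD31+CD34+ into 1398 and 3208.

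Replicate numbers are not stated to pair the libraries. Deviations of same-numbered libraries from their population means correlated between -0.02 and 0.43. With the number as a block, the calls among the 8 genes were 1, 5, 3 and 5, and those among the pathway genes 18, 41, 18 and 46.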

Other observations

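The IFITM genes and ISG15 stood at opposite ends of the libraries of each population. IFITM1, IFITM2 and IFITM3 were lowest in replicate 1 in all 4 populations, at 0.624 to 0.797, 0.333 to 0.650 and 0.700 to 0.804 of the mean of replicates 2 and 3. ISG15 was highest in replicate 1 in all 4 populations, at 1.27 to 1.59 of that mean. Of all 14840 tested genes, 18.7% were lowest in replicate 1 in each population and 4.08% were highest. Replicate 1 was also the shallowest library of each population, and the part of depth in these differences was not tested. With replicates 2 and 3 alone, the 8 genes had 1, 5, 3 and 5 calls at the steps and from H1 to CD43+, as with all libraries.

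An ISRE core was found in the promoters of 48 of 103 pathway genes with a RefSeq entry (46.6%) and a GAS in 26 (25.2%). Of the 92 tested pathway genes, 31 had an ISRE match and 34 had none. The rest had no promoter entry under the symbol used here and were left out. From APLNR+ to CD31+CD34+, 11 of the 31 were raised and 5 lowered, with a median change of 0.59, and 9 of the 34 were raised and 5 lowered, with a median of 0.36. Of all tested genes 12.5% were raised and 17.1% lowered there, with a median of -0.01. From CD31+CD34+ to CD43+, 5 of the 31 were raised and 4 lowered, with a median of -0.016, and 4 of the 34 were raised and 2 lowered, with a median of 0.28. Of all tested genes 5.58% were raised and 8.79% lowered at this step, with a median of -0.005. From H1 to APLNR+ the medians were -0.45 with a match and -0.19 without, beside -0.12 over all tested genes. From H1 to CD43+, 9 of the 31 were raised and 6 lowered, and 12 of the 34 were raised and 5 lowered, with medians of 0.25 and 0.56. Of all tested genes 14.6% were raised and 22.5% lowered in that comparison, with a median of -0.10. From H1 to CD31+CD34+ the medians with and without a match were -0.03 and 0.54, beside -0.07 over all tested genes. From APLNR+ to CD43+ these medians were 0.61 and 0.56, beside -0.07 over all tested genes. Genes with a match had the higher median in both comparisons from APLNR+ and the lower one in the other 4. All these comparisons are drawn from the same 4 populations, so they are not independent and 1 low level in APLNR+ enters several of them. The difference between genes with and without a match was not tested.

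CD43+ cells carried little PTPRC (CD45), at 0.0695, 0.521 and 0 FPKM. Erythroid markers summed to 1768 to 2267 FPKM in these libraries, megakaryocyte markers to 662 to 702 and lymphoid markers to 4.18 to 5.17. ISG15 and BST2 were highest in the same 3 libraries, and the part of these cell types in that was not tested.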
